A study of Mus musculus with 67 samples.

Results

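Hippo pathway genes were described in mouse preimplantation embryos across 5 stages, with and without exposure to light. The members were the 10 rows of the deposited expression table whose symbol was Yap1, Wwtr1, Tead1, Nf2, Amotl2, Stk3, Sav1, Lats1, Lats2 or Mob1a, of 26414 genes in all. RNA of 67 libraries was amplified and sequenced by SMART-seq2, a method that copies polyadenylated RNA along its length. All embryos were C57BL/6, from in vitro fertilization of oocytes of 6-week-old females with sperm of 10-week-old males. Light embryos were exposed as 2-cell embryos to 5000 lx over 6 h and returned to a dark incubator, whereas control embryos stayed in the dark. Control and light libraries numbered 7 and 6 (2-cell), 6 and 8 (4-cell), 4 and 8 (8-cell), 13 and 6 (morula), and 3 and 6 (blastocyst). The comparisons asked where these genes differed between light and control, and how they changed from stage to stage in each group.

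The Hippo pathway is a kinase cascade that keeps the coactivators YAP and TAZ out of the nucleus. Nf2 and angiomotin proteins at the cell membrane promote this cascade. In it the kinases STK3 and STK4 act with the adaptors SAV1 and MOB1 on LATS1 and LATS2, and the LATS kinases phosphorylate YAP and TAZ. In the preimplantation embryo the pathway is known for its part in the first lineage decision: in outer cells nuclear YAP works with TEAD4 to turn on trophectoderm genes such as Cdx2, and in inner cells the active pathway prevents this. RNA levels do not show phosphorylation or the place of a protein in the cell.

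Total reads lay between 836011 and 8551674 per library, and between 54.0% and 89.3% of them were on 2 genes, Gm42418 and CT010467.1. These were treated here as ribosomal RNA, and their median share was 74.0% in control and 84.3% in light blastocysts. The deposited value of a gene is its read count over a size factor that is common to the library, so 1 read was worth 0.266 to 3.89. The study describes single cells picked from dissociated embryos, while the labels call each library an embryo; were a library a pool of cells, fewer cells of a type and less RNA per cell could not be told apart. Libraries of a group may share an embryo. More than 10 reads on 4 Y-linked genes were found in 8 of 8 light 4-cell and 6 of 6 light blastocyst libraries, and in none of the 13 control morula, 3 control blastocyst or 4 control 8-cell libraries. The 4 control 8-cell libraries also had 0 to 5 reads of Xist, against 6 to 1714 in light 8-cell libraries. The p-values measure the spread between these libraries, which may be smaller than that between embryos. The ratio of Gm42418 to CT010467.1 reads was 3.00 ± 0.67 (SD) in control and 1.65 ± 0.07 in light 2-cell libraries, 2.70 ± 1.37 and 1.54 ± 0.075 in 4-cell, 2.21 ± 0.15 and 1.63 ± 0.06 in 8-cell and 3.22 ± 0.61 and 1.55 ± 0.065 in morula libraries. In blastocysts it was 1.43 in both groups. Its part in the differences between light and control was not tested. Cumulus and sperm markers were near 0, at most 5.54 and 8.65 CPM when summed (counts per 1000000 reads outside these 2 genes), although 3 of the 7 cumulus markers were not in the table.

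TEAD proteins, the DNA-binding partners of YAP and TAZ, bind the letters GGAATG, which read CATTCC on the other strand. In RefSeq promoter windows of GRCm38.p6, from 250 bases before to 50 bases after a gene's start, this motif was found on either strand in 4817 of 32851 windows (14.7%). The members had 11 windows, of which 7 (63.6%) held it, and the other pathway genes 35, of which 13 (37.1%) did. By gene, 6 of the 8 members with a window held it: Wwtr1, Amotl2, Lats2, Yap1, Mob1a and Sav1. Lats1 and Nf2 had no match in their windows. The match is shown in capitals, within 30 bases of the gene's own strand. It is given for the 3 genes higher in light at the 8-cell stage, and for Yap1, the coactivator highest at the first stage. The Lats2 match lay after the start, 4 bases from it, and the others began at -136 (Wwtr1), -65 (Amotl2) and -141 (Yap1). These are starts of RefSeq transcripts. Those of Lats2 and Amotl2 lie inside the longer GENCODE gene intervals given with each gene, and a further Lats2 window had no match.
Wwtr1, chr3:57576029-57576058, minus strand: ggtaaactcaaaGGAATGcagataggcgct
Amotl2, chr9:102717727-102717756, plus strand: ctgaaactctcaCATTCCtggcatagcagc
Lats2, chr14:57746102-57746131, minus strand: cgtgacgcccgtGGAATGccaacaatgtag
Yap1, chr9:8004720-8004749, minus strand: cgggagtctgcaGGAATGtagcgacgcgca
These matches describe the sequence only, and binding was not measured.

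Light was compared with control in each stage by limma on log2(value + 1), and a gene was called with a Benjamini-Hochberg adjusted p under 0.05 over all genes tested and a fold change of at least 2. All 10 members passed the filter on low values in every stage. At the 8-cell stage 3 members were called, all higher in light, where 9.21% of 13861 genes were called and 5.91% were higher. These were Wwtr1, Amotl2 and Lats2, each with a GGAATG match in its window, as had 3 of the other 5 members with a window. At the blastocyst stage Tead1 was called, lower in light, where 5.34% of 12743 genes were called and 4.98% were lower. No member was called at the 2-cell, 4-cell or morula stage, where 10.5%, 1.45% and 1.18% of the genes tested were called by limma. At an unadjusted p under 0.05 there were 3, 5 and 2 members, which cannot be set against these shares of adjusted calls. The edgeR quasi-likelihood test on the recovered reads called no member at these 3 stages either, with 11.7%, 1.27% and 1.33% of genes called. The median log2 fold change over the 10 members was -0.20 at the 8-cell stage, against 0.16 over all genes tested, and -0.70 at the blastocyst stage, against -0.64 over all genes.

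**Figure D1:**
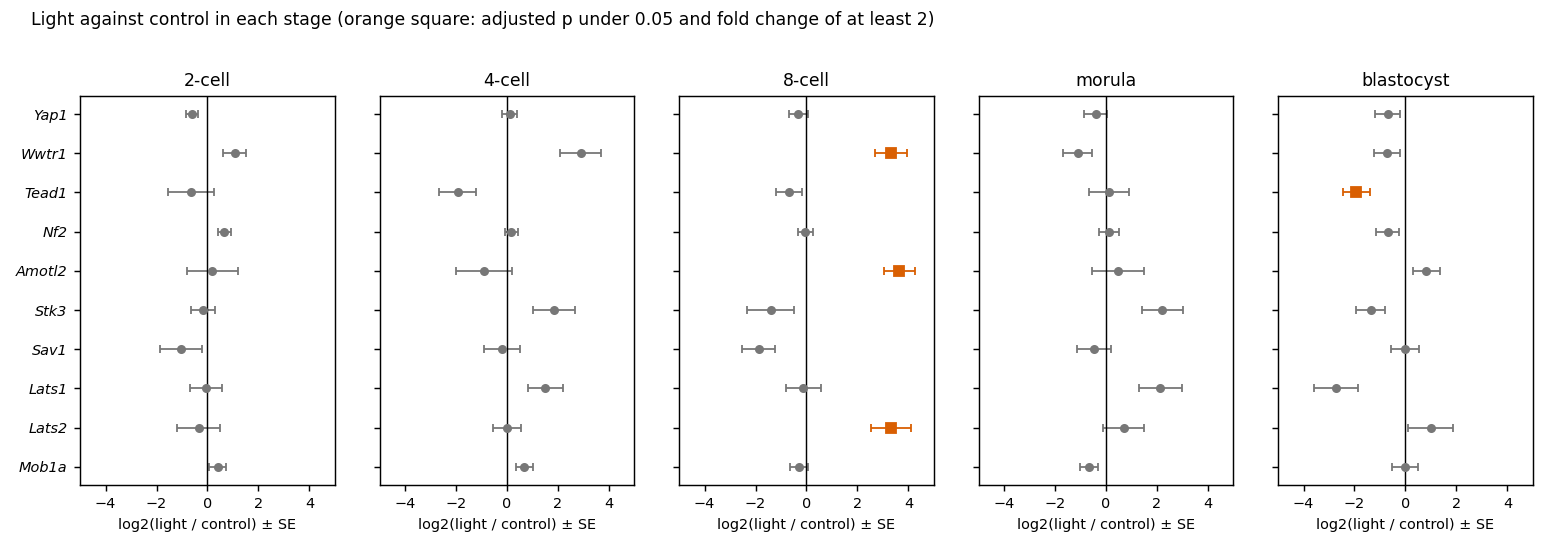
The log2 fold change of light over control with its standard error (x axis) for each Hippo pathway gene (y axis), in 1 panel per stage. Wwtr1, Amotl2 and Lats2 stand at 3.31 or above at the 8-cell stage, and Tead1 stands at -1.92 at the blastocyst stage.

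Yap1 (chr9:7931999-8004596, minus strand) encodes the coactivator YAP. It was highest at the 2-cell stage, where the value was 1344 ± 328 (SD, n = 7) in control and 885 ± 203 (n = 6) in light. Control 2-cell libraries ran from 1068 to 2038 with a median of 1273, and light 2-cell libraries from 588 to 1133 with a median of 943. The ranges overlapped, and the log2 difference of -0.61 ± 0.22 (SE) was not called (adjusted p = 0.0758, limma). Summed oocyte markers were 1786 to 4099 CPM in control and 478 to 1656 CPM in light 2-cell libraries, without overlap. Only Bmp15 did not overlap by itself, at 1038 to 3039 CPM in control and 264 to 632 CPM in light. The other oocyte markers, which include the zona pellucida genes, overlapped. Zp3 had a median of 50.2 CPM in control and 53.9 CPM in light. The part of the oocyte markers in the Yap1 values was not tested.

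Yap1 fell from the 2-cell to the 4-cell stage by 2.82 ± 0.40 on the log2 scale in control (adjusted p = 2.28e-07, limma). The fall in light was 2.11 ± 0.30 (adjusted p = 2.48e-07, limma). The ranges of the stages did not overlap in either group. How many of all genes separate between stages like this was not counted, here or for the members below. At the 4-cell stage Yap1 was 194 ± 60.6 in control and 203 ± 45.8 in light. In light it fell again by 1.26 from the 4-cell to the 8-cell stage (adjusted p = 0.00297), which was lost on the CPM scale (-0.71, adjusted p = 0.20) and by edgeR (adjusted p = 0.18). In control the same step was -0.84 ± 0.46 and was not called (adjusted p = 0.36). From the 8-cell to the morula stage Yap1 fell by 1.30 in control (adjusted p = 0.0299) and by 1.39 in light (adjusted p = 0.00119). The control call was lost without control 8-cell library 1, 2 or 4 (adjusted p up to 0.18). Morulae had 48.8 ± 31.5 in control (n = 13) and 32.7 ± 11.4 in light (n = 6), and blastocysts 60.0 ± 16.1 and 38.8 ± 17.4. In order of level, Yap1 at the 2-cell stage stood apart from all later stages in both groups, and the morula and blastocyst stages overlapped.

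Wwtr1 (chr3:57455649-57575910, minus strand) encodes TAZ, the coactivator related to YAP. At the 8-cell stage the 4 control libraries had values of 0, 3.19, 8.13 and 8.33, from at most 9 reads each. The 8 light libraries had a lowest value of 16.6, a median of 51.8 and a highest of 68.8, from 43 to 199 reads. Every light library was above every control library. Such a separation, with light higher, was found for 3.31% of all genes tested at this stage. The log2 fold change was 3.32 ± 0.61 (adjusted p = 0.00128) and was called in 12 of 12 fits that left out 1 library, on the CPM scale (adjusted p = 0.00209) and by edgeR (adjusted p = 0.0150).

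At the 4-cell stage Wwtr1 ran from 0 to 80.9 with a median of 18.4 in control and from 38.6 to 150 with a median of 51.8 in light. Control 4-cell libraries fell into low and high values, with 3 of 6 at or below 1. The log2 fold change of 2.90 ± 0.80 missed the threshold (adjusted p = 0.0618). It passed on the CPM scale (adjusted p = 0.0476, with 2.16% of genes called) and without control 4-cell library 1, 3 or 6 (3.32 to 3.55, adjusted p of 0.0222 to 0.0309), but not by edgeR (adjusted p = 0.38). Control 4-cell library 3 resembled light 4-cell libraries (median correlation 0.887) more than the other control ones (0.849). At the 2-cell stage the means were 42.2 ± 25.5 in control and 77.5 ± 14.9 in light (log2 difference 1.06 ± 0.45, adjusted p = 0.13). In morulae the order of the means was the opposite, with 49.7 ± 41.6 in control and 21.6 ± 16.8 in light (-1.12 ± 0.56, adjusted p = 0.34). In blastocysts they were 40.8 ± 9.01 and 25.7 ± 11.8, with ranges that overlapped.

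The effect of light on Wwtr1 differed between the 8-cell and morula stages by -4.43 ± 0.93 on the log2 scale (interaction term, adjusted p = 0.00278), where 1.65% of 22588 genes were called. No other member was called by limma on the deposited values for that pair of stages, and Wwtr1 was called in 67 of 67 fits that left out 1 library, by edgeR (adjusted p = 0.0103) and on the CPM scale, where 2.83% of genes and Stk3 (4.23, adjusted p = 0.022) were called as well. The stage changes of the groups, which rest on the same libraries, had opposite signs. Wwtr1 rose by 3.12 ± 0.84 from the 8-cell to the morula stage in control (adjusted p = 0.0111; 0.10 without control 8-cell library 4), and fell by 1.31 ± 0.42 in light (adjusted p = 0.0334). The light call was lost by edgeR (adjusted p = 0.0651) and without any of 5 light 8-cell libraries (5, 6, 7, 10 and 12) or light morula library 1, 3 or 12 (adjusted p up to 0.13). From the 2-cell to the 4-cell stage Wwtr1 fell by 2.09 in control (adjusted p = 0.0362), but not on the CPM scale (adjusted p = 0.10), by edgeR (0.77) or without control 2-cell library 10, 12 or 17 or control 4-cell library 2, 4 or 5.

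**Figure D2:**
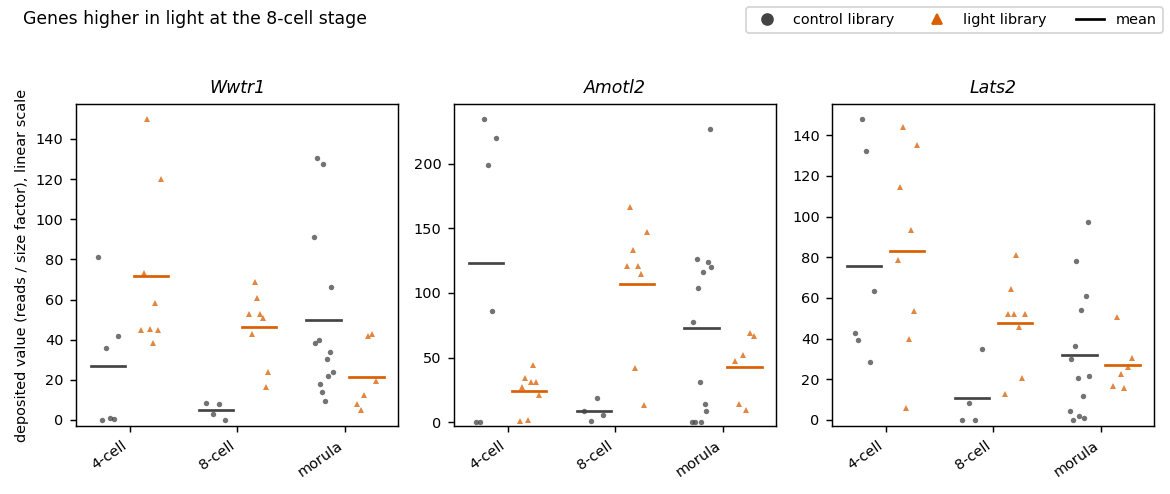
Deposited values (y axis, linear) of Wwtr1, Amotl2 and Lats2 in each control library (circles) and light library (triangles) at the 4-cell, 8-cell and morula stages, with group means as lines. The 4 control 8-cell libraries have at most 8.33 for Wwtr1 and 18.6 for Amotl2, and for each of the 3 genes the control mean is lower at the 8-cell stage than at either neighbouring stage.

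Tead1 (chr7:112679318-112906807, plus strand) encodes a TEAD transcription factor, through which YAP and TAZ act on DNA. The 3 control blastocyst libraries had 59.7, 94.2 and 139. The 6 light blastocyst libraries ran from 12.1 to 42.8 with a median of 28.2, all below the control libraries. Groups that did not overlap in either direction were found for 12.5% of the genes tested at this stage. In CPM the Tead1 ranges overlapped, at 81.5 to 192 in control and 27.1 to 113 in light. Tead1 fell by 1.92 ± 0.52 (adjusted p = 0.0324), while the median of all genes was -0.64. On the CPM scale, where that median was -0.04, the difference was -1.19 and was not called (adjusted p = 0.22, with 1.96% of genes called), nor was it called by edgeR (0.18, with 1.18% called), with a pseudocount of 0.1 (0.0548), with no filter on low values (0.0643), or without control library 1 or 2 or light library 15, 24 or 26 (adjusted p up to 0.20).

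The blastocyst libraries also differed in lineage markers. Summed trophectoderm markers were 9078 to 13154 CPM in light and 928 to 8351 CPM in control, and summed inner cell mass markers were 302 to 531 CPM in light and 369 to 3053 CPM in control. The control blastocyst libraries 1, 2 and 3 had 510, 404 and 89.4 CPM of Nanog and 16.1, 224 and 267 CPM of Cdx2, whereas light libraries had at most 46.2 CPM of Nanog and at least 309 CPM of Cdx2. Krt8 did not overlap either, at 523 to 3869 CPM in control and 4885 to 7077 CPM in light. The other markers of both lists overlapped between the groups. Gata3, for example, was 82.6 to 1213 CPM in control and 877 to 1318 CPM in light. Pou5f1 was 271 to 1041 CPM in control and 247 to 513 CPM in light. The part of these markers in the Tead1 values was not tested. At the other stages Tead1 did not differ by a called change. It ran from 40.9 to 75.3 in control and from 0.491 to 62.4 in light at the 4-cell stage (-1.94 ± 0.71, adjusted p = 0.15), and from 25.6 to 48.1 and 5.09 to 45.7 at the 8-cell stage. Morulae had the widest spread, 1.52 to 151 in control and 0.912 to 184 in light. In control it rose by 2.05 ± 0.70 in the step from 2 to 4 cells (adjusted p = 0.0168), also on the CPM scale and by edgeR, and was at the threshold without control 2-cell library 10 (adjusted p = 0.0505). No other change of Tead1 between stages was called.

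Nf2 (chr11:4765845-4849536, minus strand) encodes Merlin, which acts upstream of the kinases at the membrane. Its values were among the highest of the members at every stage. They were 332 ± 58.5 in control and 531 ± 108 in light 2-cell libraries (log2 difference 0.67 ± 0.25, adjusted p = 0.0838), 428 ± 122 and 479 ± 121 in 4-cell libraries, and 325 ± 121 and 318 ± 115 in 8-cell libraries. From the 8-cell to the morula stage Nf2 fell in both groups, by 1.86 ± 0.37 in control (adjusted p = 5.19e-04) and by 1.69 ± 0.30 in light (adjusted p = 7.34e-05). These calls held on the CPM scale, by edgeR and in every fit that left out 1 library. Morulae had 96.5 ± 53.4 in control and 102 ± 49.1 in light, and blastocysts 113 ± 24.1 and 74.6 ± 29.5. Light and control Nf2 overlapped in all 5 stages.

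Amotl2 (chr9:102716672-102733418, plus strand) encodes an angiomotin-like scaffold that binds YAP at cell junctions, and is itself known as a YAP target. At the 8-cell stage the 4 control libraries had 1.06, 5.42, 8.33 and 18.6. The 8 light libraries ran from 13.6 to 166 with a median of 121. Light library 8, at 13.6, was the only light library within the control range. The log2 fold change was 3.65 ± 0.62 (adjusted p = 6.39e-04), and was called in 12 of 12 fits that left out 1 library, on the CPM scale (3.63, adjusted p = 0.0014) and by edgeR (3.62, adjusted p = 0.00407). In light Amotl2 rose in successive stages, by 1.86 ± 0.63 from the 2-cell to the 4-cell stage (adjusted p = 0.0161; up to 0.0771 without light 2-cell library 12 or 16) and by 2.39 ± 0.58 to the 8-cell stage (adjusted p = 0.00713). The control means were 11.0, 123, 8.35, 73.0 and 74.8 in order of stage, and no change between them was called by limma. Its control libraries were split at the 4-cell stage, where 2 of 6 had no read and the highest had 235. Its rise in the step from 2 to 4 cells in control was called by edgeR (3.62, adjusted p = 0.0179).

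Stk3 (chr15:34875496-35178921, minus strand) encodes MST2, 1 of the core kinases that activate LATS. It was 67.7 ± 38.5 in control and 55.0 ± 26.4 in light 2-cell libraries. It then fell by 4.10 ± 0.87 to the 4-cell stage in control (adjusted p = 1.86e-04) and by 2.08 ± 0.57 in light (adjusted p = 0.00301), both of which edgeR put just short of the threshold (0.0526 and 0.0893). In light it fell by a further 2.27 to the 8-cell stage (adjusted p = 0.00463), where 3 of 8 light libraries had no read and the highest value was 8.56. It rose by 2.62 ± 0.57 from there to the morula stage (adjusted p = 0.00121). In control it was 10.3 ± 9.91 and 5.35 ± 7.59 at these stages and rose by 4.22 ± 1.01 to the blastocyst stage (adjusted p = 0.0040; 0.0539 without control blastocyst library 2). Control blastocysts had 36.8, 54.6 and 118, and light blastocysts 9.20 to 38.4 with a median of 31.7. No difference between light and control was called in any stage.

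Lats1 (chr10:7681214-7716460, plus strand) and Lats2 (chr14:57689662-57758388, minus strand) encode the kinases that phosphorylate YAP and TAZ. Lats2 was near 0 at the 2-cell stage, at most 22.8 in control and 5.03 in light, and rose by 4.26 ± 1.08 to the 4-cell stage in control (adjusted p = 0.00137) and by 4.61 ± 0.53 in light (adjusted p = 1.91e-09). No library of the 4-cell stage overlapped with the 2-cell stage of its group, and both calls held on the CPM scale, by edgeR and in every fit that left out 1 library. At the 8-cell stage the control libraries had 0, 0, 8.52 and 34.6, and the light libraries ran from 12.8 to 80.9 with a median of 52.0. Light libraries 8 and 10 lay below the highest control library. The log2 fold change of 3.31 ± 0.78 was called in 12 of 12 fits that left out 1 library (adjusted p = 0.00833) and on the CPM scale (0.00907), but not by edgeR (1.95, adjusted p = 0.16), which called 6.41% of genes and the other 2 members. Light and control Lats2 overlapped at the other stages, with 75.6 ± 51.3 and 83.1 ± 48.3 at the 4-cell stage and 32.1 ± 31.7 and 26.9 ± 12.9 in morulae.

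Lats1 fell by 2.64 ± 0.60 from the morula to the blastocyst stage in light (adjusted p = 0.00118, also on the CPM scale; 0.21 by edgeR), and no other change of Lats1 between stages was called. The 3 control blastocyst libraries had 10.9, 12.9 and 32.1. The 6 light libraries ran from 0 to 9.61 with a median of 1.15, so the deposited values did not overlap. Groups without overlap in either direction were found for 12.5% of the genes tested at this stage. On the CPM scale Lats1 overlapped, at 14.9 to 65.4 in control and 0 to 32.2 in light. The log2 difference of the deposited values, -2.73 ± 0.87, missed the threshold (adjusted p = 0.0661, limma). In morulae the control values ran from 0 to 44.3 with a median of 1.05, and the light values from 10.9 to 18.5 with a median of 16.7. The effect of light on Lats1 differed between the morula and blastocyst stages by -4.87 ± 1.18 (interaction term, adjusted p = 0.0134), where 1.82% of 22588 genes were called. This call was lost by edgeR (adjusted p = 0.33, with 1.18% of genes called) and without control blastocyst library 1 (0.0628). For the first 2 pairs of neighbouring stages no interaction of a member was called by limma, where 6.36% and 2.51% of genes were. An unadjusted p under 0.05 was found for 1 and 3 members, which is not comparable with these shares of adjusted calls. By edgeR 0 and 1 members were called (3.4% and 4.59% of genes), the latter being Amotl2 between the 4-cell and 8-cell stages (5.84, adjusted p = 0.0146; limma 4.54, adjusted p = 0.14).

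Mob1a (chr6:83326016-83343776, plus strand) and Sav1 (chr12:69965012-69987002, minus strand) encode adaptors of the kinases. Mob1a was 352 ± 189 in control and 412 ± 85.1 in light 2-cell libraries. It fell by 1.08 ± 0.42 to the 4-cell stage in control (adjusted p = 0.0338), but not on the CPM scale (0.14), by edgeR (0.10) or without control 2-cell library 11, 12, 17 or 24 or control 4-cell library 1, 2 or 5 (up to 0.0936). In light it fell by 1.21 ± 0.28 from the 4-cell to the 8-cell stage (adjusted p = 0.00397), where the stages did not overlap, and this too was not called on the CPM scale (0.18) or by edgeR (0.15). It reached 73.6 ± 34.9 in control and 73.7 ± 33.5 in light blastocysts. Sav1 was the least detected member: 16 of 34 light and 12 of 33 control libraries had no read. Its highest group mean was 11.8 ± 9.37 in control 2-cell libraries, and at the 8-cell stage the control libraries had 0, 6.26, 6.97 and 7.40 and the light ones 0 to 2.66, with 6 of 8 at 0 (-1.88 ± 0.65, adjusted p = 0.0674). No change of Sav1 was called. The gene overlaps Atl1 on the other strand, and the use of strand in counting is not stated in the sources used here.

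**Figure D3:**
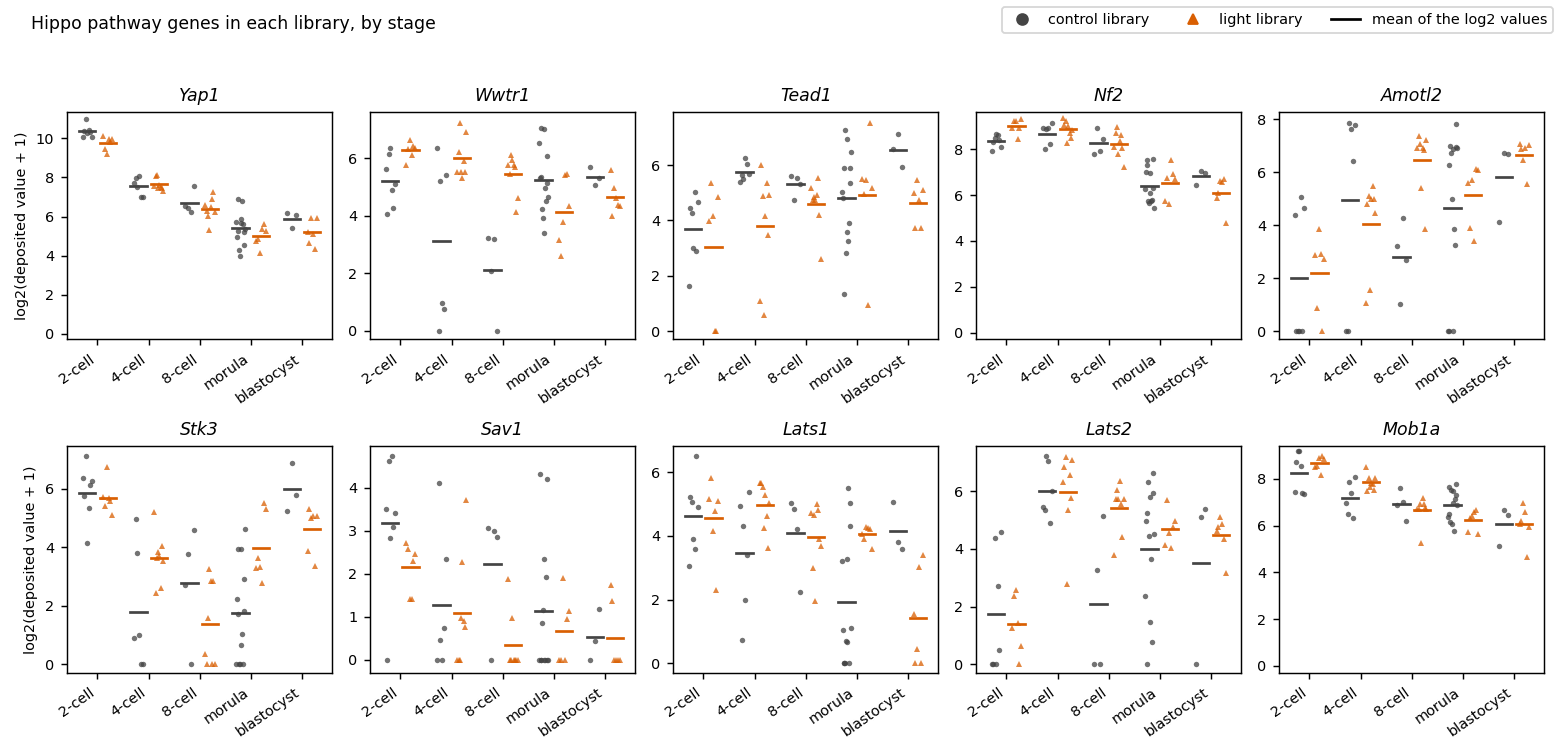
Values of the 10 Hippo pathway genes as log2(value + 1) (y axis) in each control library (circles) and light library (triangles) at each stage (x axis), with the mean of the log2 values as a line. Yap1, Nf2 and Mob1a have lower means in blastocysts than at the first stage in both groups, but only Mob1a falls at every step in both. These genes have reads in every library, whereas Amotl2, Lats1, Lats2, Stk3 and Tead1 have libraries at or near 0 beside libraries far above.

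From stage to stage, 6 members were called in control in the step from 2 to 4 cells, where 42.7% of 20444 genes were called and the median of all genes was -0.49 (-0.31 on the CPM scale). Lats2 and Tead1 rose, and Yap1, Wwtr1, Stk3 and Mob1a fell, of which Wwtr1 and Mob1a were lost on the CPM scale. No member was called in control between the 4-cell and 8-cell stages (3.71% of genes), and edgeR called 0 (1.91% of genes). At an unadjusted p under 0.05 there was 1 member, which is not comparable with these shares of adjusted calls. Between the 8-cell and morula stages 3 were called (11.4%), with Wwtr1 rising and Yap1 and Nf2 falling, and Stk3 alone rose between the morula and blastocyst stages (10.2%). In light, 4 members were called in the step from 2 to 4 cells (35.5% of 19503 genes): Lats2 and Amotl2 rose, and Yap1 and Stk3 fell. Between the 4-cell and 8-cell stages 4 were called (6.82%), with Amotl2 rising and Yap1, Stk3 and Mob1a falling. The median of all genes was -0.29 there, and -0.02 on the CPM scale, where 2 were called (1.33% of genes) and edgeR called 1 (1.68%). Between the 8-cell and morula stages Stk3 rose and Yap1, Wwtr1 and Nf2 fell (9.27%). Between the morula and blastocyst stages Lats1 fell (14.5%), while on the CPM scale Wwtr1 (1.22, adjusted p = 0.0492) and Amotl2 (2.25, adjusted p = 0.0202) were called higher as well (12.1% of genes). By edgeR, Yap1 and Amotl2 were called higher in that step (9.97%), and Lats1 was not. In the control step from 2 to 4 cells edgeR called Yap1, Tead1, Amotl2 and Lats2 (40.4%), and on the CPM scale Yap1, Tead1, Stk3 and Lats2 were called (38.7%).

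**Figure D4:**
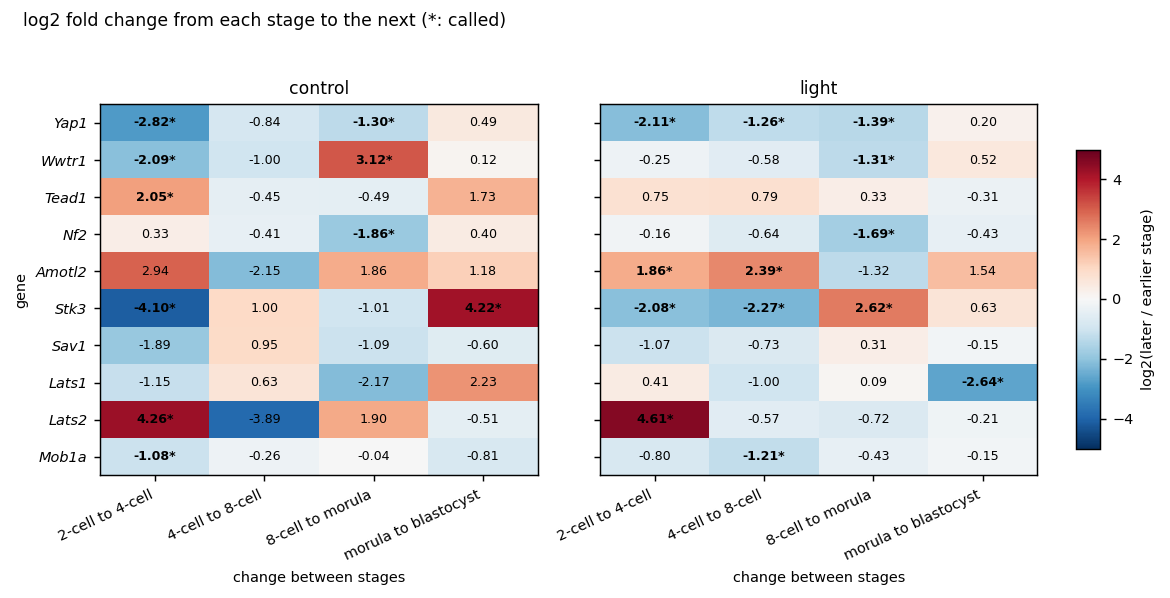
The log2 fold change from each stage to the next (columns) for each Hippo pathway gene (rows), in control and in light, with a colour scale from -5 to 5 and an asterisk on called changes. Yap1 and Lats2 change with the same sign from the 2-cell to the 4-cell stage in both groups, and Wwtr1 from the 8-cell to the morula stage is 3.12 in control and -1.31 in light.

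The control 8-cell libraries stood apart in other genes too. The transient 2-cell marker Zfp352 was 27.7 to 207 CPM in control and at most 3.27 CPM in light 8-cell libraries. Of the inner cell mass markers, only Pou5f1 did not overlap, at 30.9 to 76.2 CPM in control and 122 to 257 CPM in light. Fgf4 had the higher median in control (94.5 against 22.6 CPM), and Tdgf1 in light (675 against 89.7 CPM). Nanog was 0 to 44.1 CPM in control and 0 to 38.4 CPM in light, and Sox2 was at most 0.623 CPM. Tdpoz4, another transient 2-cell gene, was 76.9 to 292 CPM in control and 1.37 to 138 CPM in light. The other 3 genes of that list, Zscan4c, Zscan4d and Zscan4f, each had reads in 1 of 4 control libraries, and in 1, 4 and 1 of 8 light libraries, with at most 17.8 CPM. Summed, the 5 genes were 105 to 452 CPM in control and 2.74 to 138 CPM in light. Summed oocyte markers were 143 to 276 CPM in control and 45.3 to 144 CPM in light. These differences go with the higher Wwtr1, Amotl2 and Lats2 in light, and their part in them was not tested.

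Shares within pairs of related genes do not depend on the scale of a library. Reads were divided by exon length, and libraries with fewer than 20 reads of a pair were left out. Wwtr1 made up a median of 5.67% of Yap1 and Wwtr1 in control 2-cell and 14.6% in light 2-cell libraries, and 65.0% in control morulae and 54.8% in light morulae. At the 8-cell stage its share was 0% to 17.3% in control and 17.4% to 75.6% in light, so the groups met without overlapping. Lats2 was the smaller part of Lats1 and Lats2 at the 2-cell stage, at most 45.1% in control (4 libraries with enough reads) and 7.30% in light (3 libraries), and had a median of 82.6% and 73.8% at the 4-cell stage. The share of Stk4, the other MST kinase, had a median of 49.6% in control and 61.2% in light 2-cell libraries, 88.3% and 98.8% in 8-cell libraries, and 40.7% and 60.4% in blastocysts. Tead4 held at least 90.8% of Tead1 and Tead4 in every 4-cell library of both groups. In blastocysts its share was 86.2% to 96.4% in 6 light libraries and 21.5% to 81.0% in 3 control libraries, without overlap. How often other pairs of genes separate like this, or like Wwtr1 at the 8-cell stage, was not examined. Amotl2 made up 10.6% to 44.2% of Amot and Amotl2 in control blastocysts and 43.6% to 76.3% in light ones.

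**Figure D5:**
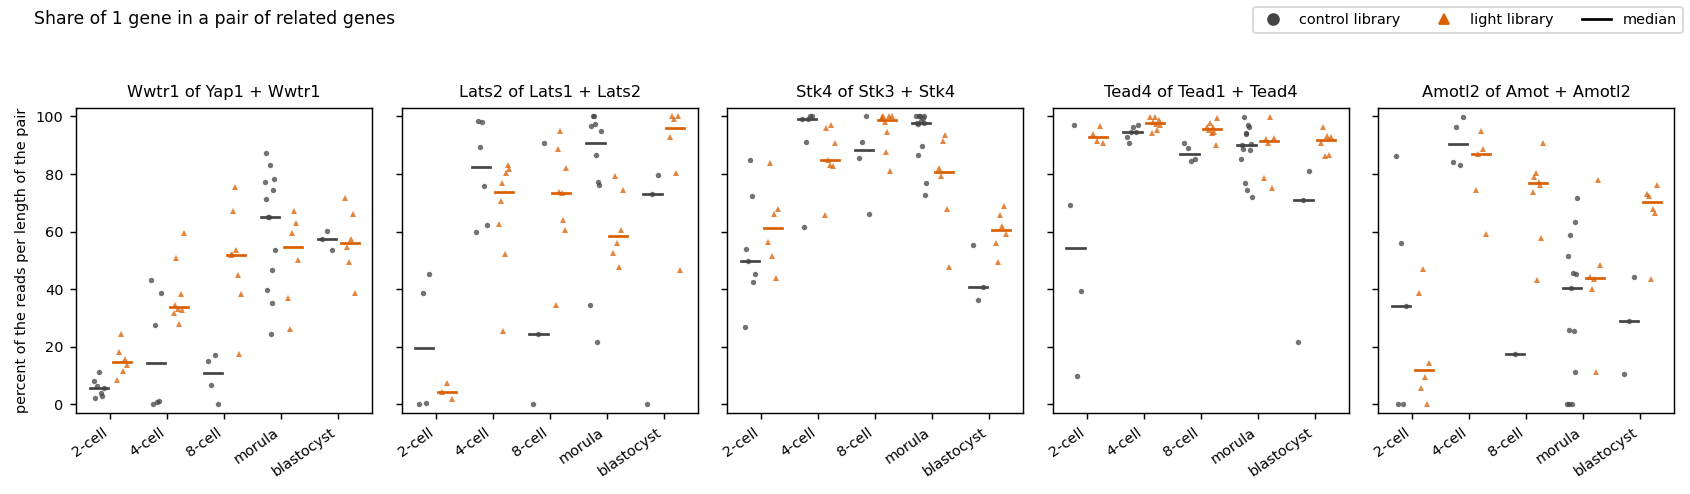
The share of the second gene in each pair of related genes, in percent of the reads per length of the pair (y axis), in each control library (circles) and light library (triangles) at each stage (x axis), with the median as a line. Wwtr1 and Lats2 have smaller median shares at the 2-cell stage than in morulae and blastocysts. Their control 8-cell medians are 10.9% and 24.4%, the latter from 3 libraries. Stk4 has its largest medians between the 4-cell and morula stages.

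Per length, the coactivators changed places. Mean CPM per kilobase of exon was 108 for Yap1 and 6.49 for Wwtr1 in control 2-cell libraries, and 7.11 and 15.4 in control morulae. Nf2 and Mob1a were among the highest members at every stage, at 19.9 to 74.7 and 22.4 to 69.2 CPM per kilobase over the 10 groups, and Sav1 was the lowest in 8 of them, at 0.139 to 1.65 over all groups.

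Of 40 other Hippo pathway genes, 3 of 35 tested were called between light and control at the 2-cell stage (1 higher, 2 lower), 2 of 31 at the 4-cell stage (both higher), 4 of 30 at the 8-cell stage (3 higher, 1 lower), 0 of 36 in morulae and 3 of 34 in blastocysts (all lower). Of all genes tested, 10.5%, 1.45%, 9.21%, 1.18% and 5.34% were called at these stages, in the same order. In morulae 4 genes of the list had an unadjusted p under 0.05, which is not comparable with these shares of adjusted calls. There edgeR called 0 (1.33% of all genes). The median log2 fold change of this list was 0.07 at the 8-cell stage and -0.33 in blastocysts, against 0.16 and -0.64 over all genes tested. At the 2-cell stage Tead4, the TEAD factor of the trophectoderm, was 0.79 to 60.0 in control and 3.34 to 129 in light (2.83 ± 0.90, adjusted p = 0.0381; called in 4 of 13 fits that left out 1 library). Map4k4 and Taok1, kinases upstream of LATS, were lower, with log2 fold changes of -2.48 ± 0.63 and -1.13 ± 0.25 (adjusted p = 0.0090 and 0.00293), each in 13 of 13 such fits. At the 4-cell stage Limd1, an inhibitor of LATS, was higher by 3.04 ± 0.77 and Myc by 3.29 ± 0.85 (adjusted p = 0.0417 and 0.0468), and edgeR called neither (0.0977 and 0.24). They were called in 3 and 2 of 14 fits that left out 1 library.

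At the 8-cell stage Amot, the angiomotin after which the family is named, was 0 to 34.6 in control and 13.2 to 73.2 in light (2.90 ± 0.71, adjusted p = 0.0113; 0.0565 without control 8-cell library 3). Vgll4, a protein that competes with YAP for TEAD, and Tjp1, a tight junction scaffold, were higher by 2.74 ± 0.76 and 1.40 ± 0.42. Wwc1, an upstream scaffold also called Kibra, was lower, with a log2 fold change of -2.69 ± 0.81. Amot, Vgll4, Tjp1 and Wwc1 were called in 11, 10, 5 and 5 of 12 fits that left out 1 library, and none was called by edgeR (adjusted p of 0.105 to 0.399). In blastocysts 3 genes were lower: the log2 fold change was -1.83 ± 0.36 for Fat1, an atypical cadherin, -2.66 ± 0.56 for Stk38, a kinase related to LATS, and -1.73 ± 0.45 for Amot (174 to 343 in control, 31.6 to 152 in light). On the CPM scale and by edgeR only Stk38 kept its call (adjusted p = 0.0364 and 0.0256), and without control blastocyst library 2 it was at 0.0564.

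Stk4 was 73.7 ± 34.5 in control and 95.5 ± 59.5 in light 2-cell libraries and was called neither between light and control nor between stages. Cdx2, the trophectoderm gene downstream of YAP and TEAD4, had no read in the 4 control 8-cell libraries and at most 6.11 in light ones. It rose to the morula stage by 4.32 ± 1.01 in control (adjusted p = 0.00337) and by 3.62 ± 0.56 in light (adjusted p = 7.72e-06), and rose again to the blastocyst stage in light (2.63 ± 0.60, adjusted p = 0.00111). Tead4 rose in the step from 2 to 4 cells by 5.59 ± 0.64 in control (adjusted p = 3.61e-09) and by 2.84 ± 0.50 in light (adjusted p = 1.28e-05). In that step 14 of 38 other pathway genes were called in control (2 higher, 12 lower). In light 13 of 37 were called (3 higher, 10 lower). Of all genes tested, 42.7% were called in control and 35.5% in light. Limd1 fell by 6.19, Rassf1 by 4.51 and Map4k4 by 4.21 in control, and Wwc2 fell by 2.87 and Limd1 by 2.55 in light, where Myc rose by 2.80.

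Between the 4-cell and 8-cell stages 0 of 38 other pathway genes were called in control, where 3.71% of all genes were. Of the list, 9 had an unadjusted p under 0.05, which is not comparable with that share of adjusted calls. For this step edgeR called 0 (1.91% of all genes). In light 3 of 37 were called, against 6.82% of all genes. Amot rose by 2.78, Gata3, a trophectoderm factor, rose by 1.78 and Stk38 fell by 1.59. The Gata3 call was lost without any of light 4-cell libraries 1, 5, 6, 7, 9, 13 and 14 or light 8-cell libraries 6, 10, 11 and 12 (adjusted p up to 0.112), and that of Stk38 on the CPM scale (0.0632) and by edgeR (0.0599). Between the 8-cell and morula stages 6 were called in control (4 higher, 2 lower) and 12 in light (7 higher, 5 lower). Of all genes tested, 11.4% were called in control and 9.27% in light. Gata3 rose by 4.30 in control (adjusted p = 0.0229; up to 0.108 without control 8-cell library 2 or 4) and 3.63 in light, Stk38l and Dlg5 fell by 3.68 and 3.24 in control, and Ptpn14 and Map4k4 rose by 3.11 and 2.64 in light. Between the morula and blastocyst stages 4 were called in control, all higher, among them Rassf1 (3.37), Limd1 (3.25) and Vgll3 (2.81). Of all genes tested, 10.2% were called in control there and 14.5% in light. The Rassf1 call was lost without any one of the 3 control blastocyst libraries (adjusted p up to 0.209) and by edgeR (0.164), and that of Limd1 without library 2 or 3 (up to 0.156). In light 7 were called (3 higher, 4 lower), with Tead2 at 2.99, Vgll3 at 2.85 and Map4k4 at -2.17, which was lost on the CPM scale (adjusted p = 0.123), by edgeR (0.287) and in 5 of 34 fits that left out 1 library.

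Across the 67 libraries, the gene whose log2 values were most like those of a member, among 11196 genes, was Ireb2 for Yap1 (Pearson r = 0.94), Arrdc1 for Nf2 (0.89), Slc25a44 for Mob1a (0.83) and Prkaca for Stk3 (0.75). For the other 6 members the highest r lay between 0.52 (Tead1 with Fam120a) and 0.68 (Lats2 with Esrp2). Between members, the values of Yap1 and Mob1a had r = 0.71, which was 0.38 on the CPM scale. Amotl2 and Lats2 had r = 0.60 (0.65 on the CPM scale), and Yap1 and Amotl2 r = -0.49 (-0.53). These correlations describe stages and libraries together, and the libraries share the size factor of each sample.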

How the data were processed

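RNA of 67 mouse embryo libraries was sequenced by SMART-seq2. The submitters' processing notes name HISAT2, HTSeq 0.9.1 and mm9, whereas gene coordinates and exon lengths came from GENCODE M21 (GRCm38), which held 26329 of 26414 symbols (99.7%). The authors deposited signal values: reads divided by a size factor per library. RPKM is the unit given in the study's methods, but no division by length was seen. Multiplied back, 99.97% or more of a library's values were whole reads within 0.01.

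limma 3.58.1 (lmFit, eBayes with trend, R 4.3.3) was run on log2(value + 1), keeping genes that exceeded 1 in 3 or more of the fitted libraries. Calls required a Benjamini-Hochberg adjusted p under 0.05 with a fold change of 2 or more. Fold changes are on the log2(value + 1) scale, which understates low genes. Light was compared with control in 5 stages. In all, 8 stage changes were fitted, each within 1 group, and 4 interactions were fitted over all libraries. No test is named in the paper. The design was written before the unit was known and was kept. Alternatives were CPM over reads outside Gm42418 and CT010467.1, edgeR 4.0.16 (TMM, quasi-likelihood) on the recovered reads, a pseudocount of 0.1, no filter, a replicate block, and each library left out. The scripts were tested on simulated data. Figures were drawn with matplotlib 3.10.9.

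All 10 members are named. Of 40 other pathway genes, Tead4, Amot, Stk4 and Cdx2 are described throughout, with up to 3 further genes per comparison that had the largest called changes. For likeness, genes with a mean of at least 10 in a group were compared, without other members and predicted genes. The members and lists were chosen with earlier results of these data known. Within a group no pair of libraries looked like a repeat by read counts, the closest having a chi-square of 7.39 per degree of freedom. Pairs from different groups were not compared.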

Additional observations from a re-analysis of the deposited data

Results flagged for a closer look

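In 80 groups of 4 to 10 libraries of a member, 7 had a highest or lowest library far from the others by Dixon's criterion, and chance alone gives about 1 in 20. Yap1 was 2038 in control 2-cell library 12, where the other 6 had at most 1390. Stk3 was 107 in light 2-cell library 14, where the others had at most 51.1. Sav1 was 0 in control 2-cell library 11 (others at least 6.09) and 0 in control 8-cell library 2 (others at least 6.26). Lats2 was 5.89 in light 4-cell library 1, from 12 reads (others at least 39.5). Tead1 was 5.09 in light 8-cell library 9, from 12 reads (others at least 17.4). Mob1a was 37.1 in light 8-cell library 5, from 39 reads (others at least 104).

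The effect of light differed between stages for 2 members by the interaction term of limma. For Wwtr1 the difference between the 8-cell and morula stages was -4.43 (adjusted p = 0.00278), and for Lats1 the difference between the morula and blastocyst stages was -4.87 (adjusted p = 0.0134).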

How the results depend on the processing

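No direction of a called change reversed under any alternative. The number of members called moved as follows. On the CPM scale it was 1 in place of 0 for light against control at the 4-cell stage, 0 in place of 1 in blastocysts, 4 in place of 6 for the control 2-cell to 4-cell change, 2 in place of 4 for the light 4-cell to 8-cell change, 3 in place of 1 for the light morula to blastocyst change, and 2 in place of 1 for the difference of the light effect between the 8-cell and morula stages. By edgeR it was 0 in blastocysts, 1 for the light 4-cell to 8-cell change, 2 for the light morula to blastocyst change, 1 in place of 0 for the difference between the 4-cell and 8-cell stages, and 0 in place of 1 for that between the morula and blastocyst stages; it was also 2 in place of 3 at the 8-cell stage, 4 in place of 6 for the control 2-cell to 4-cell change, and 3 in place of 4 for the light 2-cell to 4-cell and 8-cell to morula changes. With no filter on low values or a pseudocount of 0.1, the blastocyst count was 0. The cause of these changes was not tested. Leaving out 1 library at a time, the counts ran from 0 to 1 at the 4-cell stage, 3 to 4 at the 8-cell stage, 0 to 2 in blastocysts, 4 to 7, 0 to 1, 1 to 3 and 0 to 1 for the 4 control stage changes in order, 3 to 5, 4 to 4, 3 to 4 and 1 to 1 for the light ones, and 0 to 0, 0 to 2, 1 to 2 and 0 to 1 for the 4 interactions.

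Replicate numbers did not pair the libraries: same-numbered libraries had correlations of their deviations of at most 0.0693. With the replicate number as a block, the counts were 0 in place of 3 for the control 8-cell to morula change, 0 in place of 1 for control morula to blastocyst, 2 in place of 4 for light 8-cell to morula, and 0 in place of 1 for both called interactions, with fewer libraries sharing a number; for light 2-cell to 4-cell it was 3 in place of 4. The block was not fitted for light against control at the 8-cell and blastocyst stages, the control 2-cell to 4-cell or the light morula to blastocyst change, where fewer than 2 numbers are shared. Several members had libraries without a read: Sav1 in 12 control and 16 light libraries, Amotl2 in 9 and 1, Stk3 in 7 and 3, Lats2 in 7 and 1, and Lats1 in 4 and 2. The part of sequencing depth in these counts was not tested.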
